A study of Mus musculus with 6 samples.

Results

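The Ly6 family surface proteins described here are 8 mouse genes, Ly6a, Ly6e, Ly6c1, Ly6c2, Ly6d, Ly6k, Lypd3 and Cd59a, out of 24054 genes in the deposited table of expected counts. They were chosen by name, with their values in the comparison of the 2 genotypes already known, so what they show in that comparison is a description: they were part of the fit over all genes, but no p-value is given for them and their calls support nothing. The cells were TIBx, a mouse line labelled as liver BNL 1ME A.7R.1, a chemically transformed liver line. In both genotypes they were grown in DMEM with serum, glutamine, pyruvate, nonessential amino acids, HEPES and antibiotics. There were 3 libraries of the parental genotype WT (replicates A, B and C) and 3 of the line TIBxDNAJ-PKAc, genotype DNAJ-PKAc, labelled as an FLC (fibrolamellar carcinoma) line. DNAJ-PKAc is the fusion of a heat shock co-chaperone to the catalytic part of protein kinase A that marks this cancer. The sources used here do not give how the fusion was made, whether either line is 1 clone or whether replicates were separate cultures, so p-values measure only the spread between these libraries and that spread may be technical, and the effect of the fusion and other differences between the lines cannot be told apart.

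Proteins of the Ly6/uPAR family carry a small domain of finger-like loops held by disulfide bonds, and most of them sit on the outer cell surface on a glycosylphosphatidylinositol (GPI) lipid anchor. Ly6a, better known as Sca-1, marks stem and progenitor cells in several mouse tissues, and Ly6e and Ly6a are induced by interferon in many cell types. Ly6c1 and Ly6c2 are known from monocytes, lymphocytes and endothelium, Ly6d and Lypd3 from squamous epithelium, Ly6k from the male germ line, and Cd59a blocks the membrane attack complex of complement.

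Library totals ran from 8095549 to 9969590 expected counts. Levels are given as CPM, counts scaled to library size after correction by the trimmed mean of M-values (TMM). Prkaca, which encodes the kinase part of the fusion, lay at 63.6 to 87.6 CPM in WT and at 95.7 to 131 CPM in DNAJ-PKAc, with no overlap (log2 difference 0.59, edgeR adjusted p = 0.155). WT B and DNAJ-PKAc C stood apart: DNAJ-PKAc C correlated with DNAJ-PKAc A and B at 0.914 and 0.911 over genes, where A and B correlated at 0.993, and with the WT libraries at 0.912 to 0.933, and WT B had 2.66% of its counts on the ribosomal precursor Rn45s, against 0.912% to 1.05% in the others. The labelled liver origin was checked against 12 hepatocyte markers: 10 of them, Alb, Ttr and Hnf4a included, had 0 counts in every library, and all 12 summed to at most 0.117 CPM. The 10 fibroblast markers, led by collagen genes, summed to 11018 to 13960 CPM in WT and to 4575 to 17453 CPM in DNAJ-PKAc. In the DNAJ-PKAc group library C stood apart here too. Col1a2 was at 3452, 3256 and 11135 CPM in A, B and C, against 5910 to 7954 CPM in WT. Hepatocyte markers were thus at or near 0 in both lines.

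Ly6e carried most of the family's RNA in WT and was far lower in DNAJ-PKAc. This gene (chromosome 15, 74955025 to 74959904, plus strand, GRCm38.p6, the assembly of mm10) encodes a GPI-anchored protein also called Sca-2, known from thymocytes and as an interferon-induced factor that acts on virus entry. Listed in the order A, B, C, here and throughout, the WT libraries had 223, 245 and 249 CPM of it, while the DNAJ-PKAc libraries had 5.74, 5.68 and 4.39. There was no overlap, and within each group the libraries lay close together, DNAJ-PKAc C and WT B included. The means were 239 ± 13.6 CPM and 5.27 ± 0.765 CPM (SD, n = 3 each), a 45.2-fold lower level (log2 difference -5.50, SE 0.19).

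Ly6a (chromosome 15, 74994877 to 74998031, minus strand) showed the same direction at a lower level. Its WT levels were 11.8, 8.52 and 12.1 CPM, and its DNAJ-PKAc levels 0.594, 0.247 and 0.366 CPM. Every WT library was above every DNAJ-PKAc library, and WT B was the lowest of the 3 WT libraries. The log2 difference was -4.67 (SE 0.39), a 25.5-fold lower level. It rested on 291 counts in WT and 11 in DNAJ-PKAc.

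Ly6c1 and Ly6c2, neighbours of Ly6a on the minus strand (75044018 to 75048920 and 75108161 to 75112066), were near the limit of detection. Ly6c1 had 30, 17 and 29 counts in WT and 2, 1 and 0 in DNAJ-PKAc. Scaled to library size, WT exceeded DNAJ-PKAc 25.0 times (95% counting interval 8.24 to 124), with no overlap. Ly6c2 had 4, 3 and 1 counts in WT and 0 in each DNAJ-PKAc library. Setting the DNAJ-PKAc group at a floor of 3 counts in all, and taking the 8 WT counts as exact, gave a fold of 2.63. That value is a lower bound under those settings, not the size of the difference. Ly6c2 did not pass the filter on low counts.

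**Figure D1:**
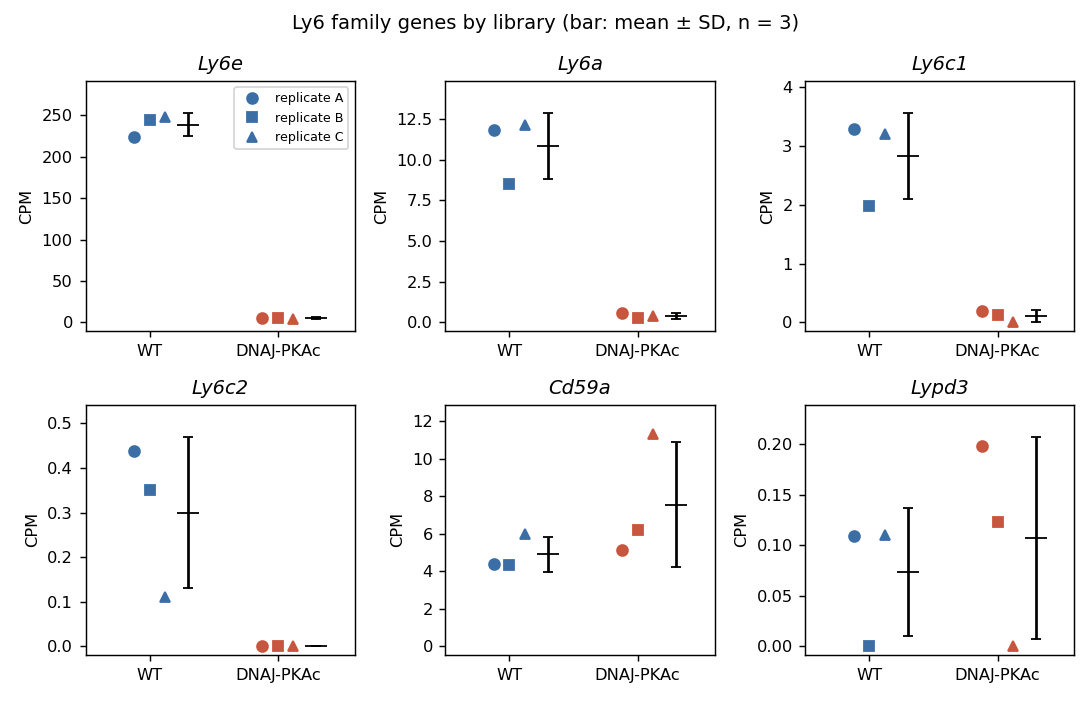
CPM (linear axis, separate scale for each gene) of the 6 detected genes in the 3 WT and 3 DNAJ-PKAc libraries, with the mean and SD beside the points. Ly6e, Ly6a, Ly6c1 and Ly6c2 are lower in all 3 DNAJ-PKAc libraries, while Cd59a and Lypd3 overlap between the groups.

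Because Ly6a, Ly6c1 and Ly6c2 are close copies, the start of their coding sequence is shown to make visible how little separates their reads. The first 90 coding bases are given 5′ to 3′ from the first listed GENCODE M21 transcript of each gene (GRCm38), with capitals at the 8 positions where the 3 genes are not all alike. Ly6e is printed in lower case for contrast and was not aligned to them.
Ly6a: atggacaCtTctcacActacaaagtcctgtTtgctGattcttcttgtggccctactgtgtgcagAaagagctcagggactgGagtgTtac
Ly6c1: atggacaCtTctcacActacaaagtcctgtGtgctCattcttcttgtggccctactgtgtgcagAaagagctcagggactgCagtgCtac
Ly6c2: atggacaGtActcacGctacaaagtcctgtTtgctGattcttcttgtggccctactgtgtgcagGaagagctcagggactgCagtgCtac
Ly6e: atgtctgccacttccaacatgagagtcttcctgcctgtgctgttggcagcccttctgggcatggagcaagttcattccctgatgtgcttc
Each stretch spans an intron. It covers 74997604 down to 74997535 and 74996568 down to 74996549 on chromosome 15 for Ly6a, 75048511 to 75048442 and 75047469 to 75047450 for Ly6c1, 75111667 to 75111598 and 75110627 to 75110608 for Ly6c2, and 74957808 to 74957877 and 74958269 to 74958288 for Ly6e.

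Over this window Ly6a differed from Ly6c1 at 4 positions and from Ly6c2 at 6, and Ly6c1 from Ly6c2 at 6. Over the whole coding sequence Ly6c1 and Ly6c2 were identical at 97.7% of aligned positions, Ly6a was identical to them at 82.0% and 81.7%, and Ly6e and Ly6a at 52.6%. The window is thus not typical of the whole, where Ly6c1 is nearer to Ly6c2 than to Ly6a. Of all stretches of 50 bases in the coding transcripts of Ly6c1, 32.8% also occurred in transcripts of another gene, against 31.2% for Ly6c2, 19.0% for Ly6a, 3.87% for Cd59a and 0% for Ly6e. For stretches of 100 bases the shares were 10.1% for Ly6c1, 14.9% for Ly6c2, 1.45% for Ly6a, 0.276% for Cd59a and 0% for Ly6e. Even so, the deposited counts of all 8 genes were whole numbers in all 6 libraries, so no fractional sharing of reads was visible in them. A wrong assignment between Ly6a, Ly6c1 and Ly6c2 remains possible, so single values of these 3 are uncertain. Their sum does not depend on assignment among them and was 142, 93 and 140 counts in WT and 8, 3 and 3 in DNAJ-PKAc (ratio 26.4, 95% counting interval 15.6 to 48.8).

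The other 4 genes did not share this pattern. Cd59a (chromosome 2, 104095753 to 104115410, plus strand), the complement inhibitor, had WT levels of 4.38, 4.32 and 5.96 CPM and DNAJ-PKAc levels of 5.15, 6.17 and 11.3 CPM. The groups overlapped, and DNAJ-PKAc C was the highest library. The log2 difference was 0.62 (SE 0.36), and 0.21 without DNAJ-PKAc C. Lypd3, also called C4.4A (chromosome 7, 24636570 to 24641118), had 2 counts over WT and 3 over DNAJ-PKAc. Ly6d (chromosome 15, 74762056 to 74763567) and Ly6k (74796874 to 74799968) had 0 counts in all 6 libraries, which allows up to 0.112 CPM in WT and 0.114 CPM in DNAJ-PKAc.

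Of the 8 genes 4 passed the filter on low counts, and 3 of these, Ly6e, Ly6a and Ly6c1, were past the threshold for a lower level (edgeR quasi-likelihood test, p adjusted by Benjamini-Hochberg over 10975 genes, under 0.05), as were 2.14% of all genes tested. None of the 8 was past it for a higher level, beside 1.37% of all genes tested. In 4 of the 8, Ly6c2 added, the DNAJ-PKAc libraries all lay below WT, as in 13.1% of all genes tested, and in 0 of the 8 they all lay above, as in 15.8%. Nothing is read from these counts, since the genes were picked with this comparison in view. Ly6c1 was no longer past the threshold without WT A, WT B, WT C, DNAJ-PKAc A or DNAJ-PKAc B (log2 differences of -4.36, -4.72, -4.39, -5.22 and -4.54).

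Corrected for length, the order of the genes changed between the lines. In WT, CPM per kilobase of the longest coding transcript was 97.9 to 109 for Ly6e, 8.92 to 12.7 for Ly6a, 2.35 to 3.90 for Ly6c1, 2.39 to 3.30 for Cd59a and 0.134 to 0.533 for Ly6c2. The ranges of Ly6c1 and Cd59a overlapped, and the other neighbours in this order were separate. In DNAJ-PKAc Cd59a came first at 2.85 to 6.28 CPM per kilobase, ahead of Ly6e at 1.92 to 2.52 and Ly6a at 0.259 to 0.622. The order of Cd59a and Ly6e rests on the lengths used, and which transcripts were expressed was not tested. Uncorrected, Cd59a at 5.15 to 11.3 CPM and Ly6e at 4.39 to 5.74 CPM overlapped in DNAJ-PKAc. In DNAJ-PKAc A Ly6e had 58 counts and Cd59a 52. Ly6c1 reached at most 0.235 CPM per kilobase in DNAJ-PKAc. Ly6e gave 91.8% to 94.2% of the counts of the 8 genes in WT and 27.3% to 48.3% in DNAJ-PKAc, while the share of Cd59a went from 1.66% to 2.21% up to 43.3% to 70.5%. The 8 genes together summed to 243 to 270 CPM in WT and 11.9 to 16.1 CPM in DNAJ-PKAc. In bulk RNA, fewer cells that express a gene and less RNA per cell cannot be told apart.

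**Figure D2:**
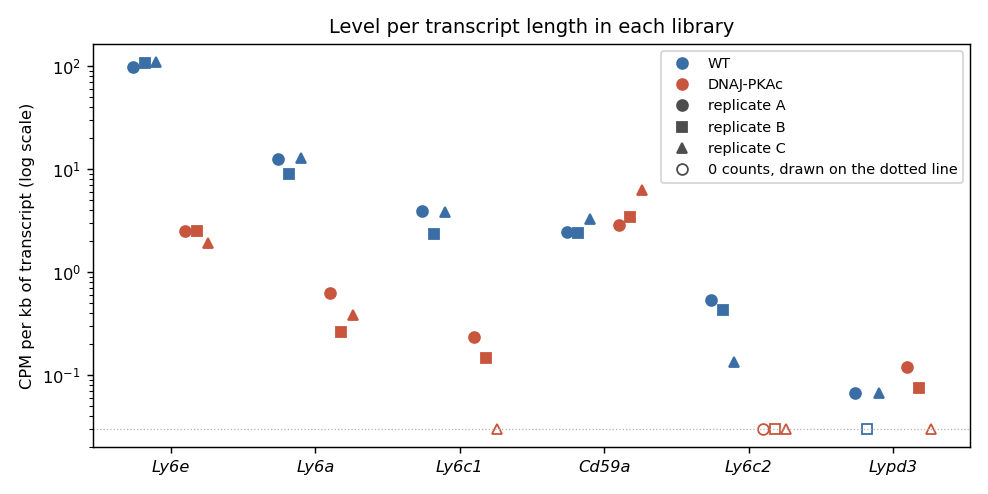
CPM per kilobase of the longest coding transcript (log axis) of the 6 detected genes in each library. WT is in blue and DNAJ-PKAc in red, with libraries at 0 counts drawn open on the dotted line. Ly6e is the highest gene in WT at 97.9 to 109, and Cd59a is the highest in DNAJ-PKAc at 2.85 to 6.28.

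Markers of leukocytes, endothelium and squamous epithelium, from which some of these proteins are known, were mostly absent or low in both lines. Fibroblast markers, given above, were not. Of 15 leukocyte markers 7 were at 0 counts in all libraries, Ptprc (CD45) and Itgam among them, and the list summed to 39.9 to 103 CPM in WT and 21.0 to 83.9 CPM in DNAJ-PKAc, nearly all of it Cd14. Of 12 endothelial markers 6 were at 0, Kdr, Erg and Cldn5 included, with sums of 9.10 to 16.1 and 10.4 to 12.4 CPM. Plvap, an endothelial surface gene, had 23, 11 and 49 counts in WT and 1, 1 and 5 in DNAJ-PKAc (log2 -3.45, edgeR adjusted p = 0.0764). Egfl7, the other endothelial marker tested, had 7.12, 6.54 and 8.39 CPM in WT against 11.9, 9.88 and 9.99 CPM in DNAJ-PKAc, with no overlap (log2 0.53, edgeR adjusted p = 0.229). Of 12 squamous epithelial markers 8 were at 0, Krt5 and Krt14 included, and the list summed to at most 1.21 CPM. The Ly6e level of 239 CPM in WT was above the summed level of each of these 3 lists. The part of these marker levels in the Ly6 differences was not tested.

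The rest of the family was nearly silent, with 2 exceptions. From a list of 42 other Ly6/uPAR genes drawn up by family membership, 37 were in the table, 32 of these had 0 counts in every library, and 2 passed the filter. Lynx1, a GPI-anchored modulator of nicotinic acetylcholine receptors, fell from 24.2, 22.1 and 28.9 CPM to 3.17, 2.59 and 1.71 CPM. The groups did not overlap, and the change was 9.96-fold (log2 -3.32, SE 0.29, edgeR adjusted p = 0.00279). It stayed past the threshold without any 1 library, with adjusted p between 0.000712 and 0.0217. Plaur, the receptor of urokinase and the name-giving larger member of the family, had 51.8, 52.2 and 36.3 CPM in WT against 153, 135 and 53.9 CPM in DNAJ-PKAc. DNAJ-PKAc C was only just above the highest WT library, and the difference did not pass (log2 1.29, SE 0.39, edgeR adjusted p = 0.130). It passed without DNAJ-PKAc C (log2 1.62, adjusted p = 0.00217) and by DESeq2 with all libraries (adjusted p = 0.0304). So 1 of the 2 tested genes was called, lower, beside 3.51% of all genes tested in either direction.

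**Figure D3:**
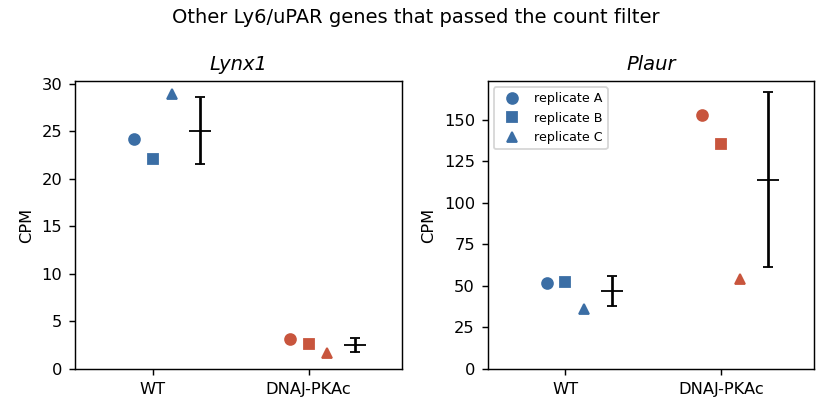
CPM (linear axes from 0) of Lynx1 and Plaur in each library, with the mean and SD beside the points. Lynx1 is at 22.1 CPM or more in WT and 3.17 CPM or less in DNAJ-PKAc, while the DNAJ-PKAc points of Plaur are at 153, 135 and 53.9 CPM, all above the highest WT point of 52.2 CPM.

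Lynx1 lies beside the Ly6 genes, so the genes around them were read along the chromosome. The 6 members on chromosome 15 span 74762056 to 75112066, and 17 other tested genes lay within 1 Mb of that stretch, none of them inside it. The 3 tested genes before Ly6d were all lower in every DNAJ-PKAc library, as were 13.1% of all genes tested. Of the 17 genes 1 was higher in every DNAJ-PKAc library, beside 15.8% of all genes tested. The sides are not alike in distance. Lynx1 ends at 74752979, close to the stretch, while the nearest tested gene beyond Ly6c2, Zfp41, starts only at 75615200. Lynx1 (74747856 to 74752979) and Them6 (74721234 to 74724373), a gene of the thioesterase superfamily, fell. Them6 had 5.37, 5.83 and 9.60 CPM in WT and 1.39, 1.48 and 1.71 CPM in DNAJ-PKAc (log2 -2.18, SE 0.34, edgeR adjusted p = 0.0217). In GENCODE M21 an exon of Them6 overlaps one of Slurp1 on the other strand, which had 0 counts. Jrk, farther out, had a log2 difference of -0.53 (adjusted p = 0.205). The 14 tested genes beyond Ly6c2 had log2 differences between -0.82 and 0.90, with 0 called by edgeR, and the smallest adjusted p belonged to Puf60, a splicing factor gene (log2 0.38, adjusted p = 0.205). Of the 17 genes 2 fell and 0 rose, beside 2.14% and 1.37% of all genes tested (median log2 difference 0.01, against 0.05 over all genes tested). Without WT A, WT B, WT C, DNAJ-PKAc A or DNAJ-PKAc B the call of Them6 was lost (edgeR adjusted p between 0.0580 and 0.113), leaving 1 gene. In those fits 77 to 110 of all genes were called, against 385 with all libraries.

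**Figure D4:**
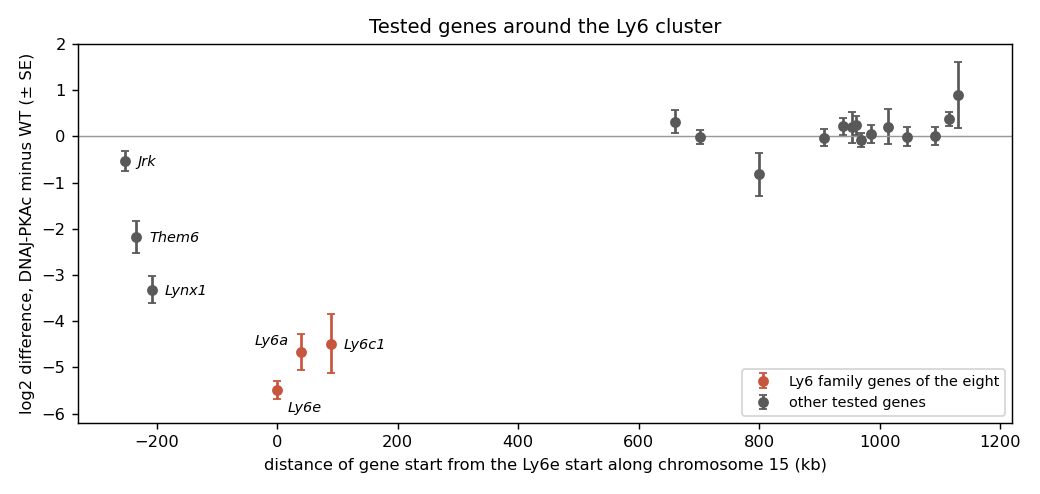
Log2 difference (DNAJ-PKAc minus WT, with SE) of the tested genes around the Ly6 cluster against the distance of their start from that of Ly6e in kilobases. The genes from Jrk to Ly6c1 lie below 0, down to -5.50 for Ly6e. The 14 genes on the far side, the nearest at 660 kb, lie between -0.82 and 0.90.

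The promoters shown are those of Ly6c1 and Ly6c2, the only pair of the lower members with RefSeq promoter sequence at hand. Ly6c2 had only 8 counts over WT and was not tested. Those reads may be wrongly assigned from Ly6c1, so a shared fall of the pair is not shown. RefSeq windows (GRCm38.p6) matched 4 of the 8 genes, and Ly6a, Ly6e, Ly6d and Ly6k had no entry. Each window runs from 250 bases before to 50 after the most upstream listed start, 5′ to 3′ on the gene's strand, and capitals mark the longest run of bases that the pair has in common, 20 bases. Ly6c1 is chr15:75048788-75049087 and Ly6c2 is chr15:75111922-75112221, both on the minus strand.
Ly6c1: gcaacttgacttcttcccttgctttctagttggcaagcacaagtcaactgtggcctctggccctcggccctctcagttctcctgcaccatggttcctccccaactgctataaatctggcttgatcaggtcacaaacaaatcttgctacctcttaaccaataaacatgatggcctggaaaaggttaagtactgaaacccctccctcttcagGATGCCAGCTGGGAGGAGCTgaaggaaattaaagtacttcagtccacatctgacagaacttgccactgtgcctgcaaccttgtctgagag
Ly6c2: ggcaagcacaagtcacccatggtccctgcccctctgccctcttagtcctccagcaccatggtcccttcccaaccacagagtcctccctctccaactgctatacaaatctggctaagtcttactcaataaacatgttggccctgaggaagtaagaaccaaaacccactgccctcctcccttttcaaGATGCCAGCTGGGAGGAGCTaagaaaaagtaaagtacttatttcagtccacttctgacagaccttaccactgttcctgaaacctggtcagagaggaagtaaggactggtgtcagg
Cd59a, whose groups overlapped, is chr2:104095551-104095850 on the plus strand, with capitals at a match to the interferon-stimulated response element core.
Cd59a: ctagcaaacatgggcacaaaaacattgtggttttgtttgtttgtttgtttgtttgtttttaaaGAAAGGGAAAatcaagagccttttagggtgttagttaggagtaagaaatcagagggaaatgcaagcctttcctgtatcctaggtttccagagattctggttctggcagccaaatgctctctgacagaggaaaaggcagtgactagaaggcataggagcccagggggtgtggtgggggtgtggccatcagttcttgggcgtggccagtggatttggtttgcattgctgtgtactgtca

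Both strands were searched for the core of the interferon-stimulated response element (GAAA, any 2 bases, GAAA), TTCNNNGAA (the GAS element), TGACGTCA (the cyclic AMP response element), its part TGACG and the consensus NF-kB site. None of these letters occurred in the windows of Ly6c1 and Ly6c2, Cd59a held the interferon core once, 187 bases before its start, and Lypd3 held TGACG once. Of 32851 RefSeq windows of this length 3.44% hold the interferon core, 8.30% TTCNNNGAA, 1.79% TGACGTCA, 20.8% TGACG (a match that any TGACGTCA also gives) and 0.155% the NF-kB consensus.

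Interferon response genes, the program known to induce Ly6a and Ly6e, were lower in 9 single cases and higher in none. Of 30 genes tested 9 fell and 0 rose, beside 2.14% of all genes called lower, and the median log2 difference was -0.86, against 0.05 over all genes. In 20 of the 30 the DNAJ-PKAc libraries all lay below WT, as they did in 13.1% of all genes tested. Ifit3, an antiviral RNA-binding protein gene, some of whose reads were split with other genes, fell from 203, 146 and 123 CPM to 9.01, 10.5 and 6.70 CPM (log2 -4.17, SE 0.28, edgeR adjusted p = 0.00137). The guanylate-binding protein gene Gbp2 fell 6.13-fold (adjusted p = 0.00605), the 2-5A synthetase gene Oas2 4.45-fold (0.00990), and the immunoproteasome subunit gene Psmb8 2.56-fold (0.0102). The transcription factor genes Irf1 (log2 -0.87, edgeR adjusted p = 0.119) and Irf9 (-0.05, 0.858) did not pass, nor did Isg15 (-0.93, 0.238). The number that fell was 3 without WT A, 4 without WT B, 6 without WT C, 3 without DNAJ-PKAc A and 2 without DNAJ-PKAc B. Over all genes the number called lower shrank too, from 235 with all libraries. It was 66 without WT A, 84 without WT B, 72 without WT C, 51 without DNAJ-PKAc A and 52 without DNAJ-PKAc B. Without DNAJ-PKAc C 14 of the list fell and 1 rose, where 2808 of all 11096 genes tested were called. Of the 4 genes with values above, Ifit3 and Gbp2 stayed past the threshold in each case. Oas2 missed it without DNAJ-PKAc A or B (adjusted p = 0.0537 and 0.0550), and Psmb8 without any 1 library but WT B and DNAJ-PKAc C (at most 0.0631).

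The machinery that builds and attaches the GPI anchor gave no call. Of 32 tested genes 0 rose and 0 fell by edgeR, beside 1.37% and 2.14% of all genes tested. A count of 0 among 32 is near these shares and is not read as a result for the list. By edgeR 6 had an unadjusted p under 0.05, a count with no share over all genes beside it, so nothing is read from it. DESeq2 called 4 of the 32, beside 974 of all 10975 genes tested, and limma-voom 0, beside 391. The median log2 difference was -0.20, against 0.05 over all genes tested. Pigs, a subunit of the transamidase that attaches the anchor, had 81.7, 102 and 94.7 CPM in WT against 52.0, 47.8 and 67.6 CPM in DNAJ-PKAc (log2 -0.73, edgeR adjusted p = 0.0902). The mannosyltransferase gene Pigv was at -0.71 (0.121), the deacetylase gene Pigl at -1.07 (0.122) and the ethanolamine phosphate transferase gene Pigg at -0.70 (0.125). Without DNAJ-PKAc C 6 of the 32 were called, beside 2808 of all 11096 genes tested in that fit.

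CD59 blocks the membrane attack complex of complement, and 4 complement genes were tested. By edgeR 1 of the 4, not reported here by name, was called lower and 0 higher, beside 2.14% and 1.37% of all genes tested. The other 3 did not pass by edgeR with all libraries. C3 stood at 461 CPM in DNAJ-PKAc C and at 75.2 to 130 CPM in the other 5 libraries (log2 1.26, adjusted p = 0.253). Cr1l (Crry), the broad membrane inhibitor of rodents, was at 49.0 to 71.0 CPM in WT and 58.9 to 76.3 CPM in DNAJ-PKAc (log2 0.22, adjusted p = 0.544). Clu, an inhibitor of the terminal complex, was at 1146 CPM in DNAJ-PKAc C but at 199 and 190 in A and B, against 308 to 548 CPM in WT (log2 0.37, adjusted p = 0.780). Without DNAJ-PKAc C its difference was -1.02 (adjusted p = 0.0377). Cd55 and the terminal components C6, C7, C8a, C8b and C9 had 0 counts in all libraries.

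Other surface proteins used with Sca-1 to mark progenitor cells gave 1 rise and 1 fall among 11 tested (median log2 difference -0.50), beside 1.37% of all genes called higher and 2.14% called lower. Alcam, an adhesion molecule of the immunoglobulin superfamily, fell from 97 counts to 2, a ratio of 47.9 (95% counting interval 12.9 to 401, edgeR adjusted p = 0.0129). Procr, the endothelial protein C receptor, rose from 46.0, 29.6 and 36.1 CPM to 106, 104 and 74.9 CPM (log2 1.35, SE 0.23, adjusted p = 0.0267). Nt5e (CD73) was at log2 -1.70 (adjusted p = 0.0544) and Cd34 at -0.60 (0.125), the latter at 1004 to 1329 CPM in WT and 719 to 868 CPM in DNAJ-PKAc. Kit, Thy1, Prom1 and Epcam had 0 counts. Without DNAJ-PKAc C 6 genes were called (2808 of 11096 over all genes), without DNAJ-PKAc A 1, and without WT A, WT B, WT C or DNAJ-PKAc B 0. Over all genes 385 were called with all libraries, 78 without DNAJ-PKAc A, and 77 to 110 in the fits that gave 0 here.

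**Figure D5:**
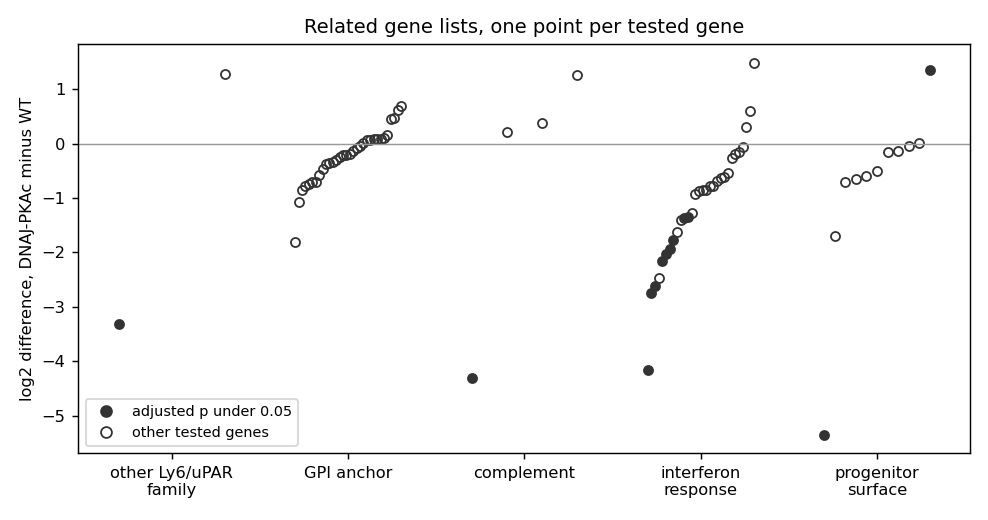
Log2 difference (DNAJ-PKAc minus WT) of each tested gene in 5 related lists, ordered within each list, filled where the edgeR adjusted p was under 0.05. The interferon response list holds 9 filled points, all below 0, and the GPI anchor list holds 0.

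The genes whose course over the 6 libraries was most like that of each tested member were found by the root mean square distance between log2 CPM profiles centred on their means. For Ly6e these were Gm4951, Ece1 and Gbp9, at distances of 0.33, 0.36 and 0.36. For Ly6a they were Lrrc15, Naip5 and Alcam (0.27, 0.28 and 0.29), and for Ly6c1 Lynx1, Trim30a and Acss3 (0.16, 0.30 and 0.35). For Cd59a they were Mfap1a, Gpr155 and Rab4a, each at 0.08. Over the DNAJ-PKAc group Ly6a had 11 counts, Gbp9 6, Ly6c1 and Gm4951 3 each, Lrrc15, Naip5 and Alcam 2 each and Acss3 1. The distances that involve them, all those to Ly6a and Ly6c1 included, thus depend on the prior count of 2.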

How the data were processed

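Total RNA libraries (stranded kit) of 3 WT and 3 DNAJ-PKAc samples were grouped by the genotype in the labels, and columns were matched by library name. The deposited values are expected counts per gene symbol, not normalized, per the file headers. The tools STAR 2.5.2b and RSEM 1.3.0 and the mm10 build come, with no role stated, from the submitters' processing notes. Not given in the sources used here: annotation, filters, and whether counting used strand. The share of non-whole values per library ran from 1.52% to 1.68%.

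Counts were rounded, kept by filterByExpr (minimum count 10, 10975 genes), scaled by TMM and fitted in edgeR 4.0.16 (R 4.3.3) with a robust quasi-likelihood test and the genotype as the only term, 2-sided, Benjamini-Hochberg threshold 0.05. SE is the size of the log2 difference over the root of F. Counting intervals are exact binomial and cover counting error only. A fold from a floor leaves out the counting error of the other group. The members and lists were chosen with earlier results of these data known. Named were the 8 members, in each list the 4 genes of smallest p, other family genes of at least 1 CPM, and the 3 genes nearest each member in profile; the interferon transcription factor genes, Isg15 and genes at 0 counts were picked after their values were seen. Positions and promoters are from RefSeq GRCm38.p6, lengths and coding sequences from GENCODE M21. Of the listed genes 2 are not reported here by name. Some named list genes were matched through RefSeq synonyms. On counts simulated for this comparison over 10975 genes, edgeR found 27 of 100 genes set 2-fold apart, 85 of 100 set 4-fold apart, and 9 false ones. Those counts were independent negative binomial draws at the trended dispersion, with no library set apart. The figures need not hold for these data, where WT B and DNAJ-PKAc C stood apart. The alternatives were no filter, RLE or upper-quartile factors, 1 CPM in 3 libraries, DESeq2 1.42.0, limma-voom (limma 3.58.1), unrounded counts, the replicate letter as a block and each library left out. A fit with neither WT B nor DNAJ-PKAc C was added after the data were seen.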

Additional observations from a re-analysis of the deposited data

How the results depend on the processing

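The log2 differences ran from -5.56 to -5.38 for Ly6e, from -5.08 to -4.43 for Ly6a, from -5.22 to -3.99 for Ly6c1 and from 0.08 to 0.84 for Cd59a over 15 alternatives each. With 17 to 30 counts per WT library and 0 to 2 per DNAJ-PKAc library, depth limits Ly6c1 most. Over all genes 385 were called; DESeq2 called 974, the fit with the replicate block 199, and the fit with neither WT B nor DNAJ-PKAc C 5336, while leaving out 1 library gave 77 to 2808. Same-lettered libraries did not deviate together (r of 0.21, -0.20 and 0.03 for A, B and C), so the letters were not taken as pairs, and the replicate block moved no other count of calls by over 1.5 times. DESeq2 called 2 other family genes, 4 GPI anchor genes, 16 interferon response genes and 4 progenitor surface genes, and limma-voom 0 complement genes. Without WT B and DNAJ-PKAc C these counts were 2, 12, 21 and 8, with 2 complement genes and 4 cluster neighbours. Without 1 library they ran from 1 to 2 for the other family genes, 0 to 6 for GPI anchor, 0 to 2 for complement, 2 to 15 for interferon response, 0 to 6 for progenitor surface and 1 to 2 for cluster neighbours. Clu ran from -1.02 to 0.77 without 1 library, and changed sign without DNAJ-PKAc C (-1.02), without WT B and DNAJ-PKAc C (-1.22), by limma-voom (-0.12) and with the replicate block (-0.13), and Cr1l without WT B and DNAJ-PKAc C (-0.034). Leaving out a library leaves fewer samples, and other causes were not tested.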
